A study of Mus musculus with 366 samples.

Results

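The genes described here make, store and break down triglyceride, the neutral fat that fills the droplets of fat cells. The list held 33 genes, and 28 of them were measured by at least 1 probe set that the platform annotation gives to that gene alone, out of 17097 genes with such a probe set. Plin1, Cidec, Cfd, Adrb3 and Agpat2 were not analysed here because no probe set is listed under them. Where a gene had several probe sets, the one with the highest mean over all arrays was used. The 28 genes had 48 probe sets in all, 14 genes with 1 and 14 with several.

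The arrays came from aortas of female F1 mice of the atherosclerosis Hybrid Mouse Diversity Panel (Ath-HMDP), 1 mouse per array. Each mother was of a different inbred or recombinant inbred strain, and each father was a C57BL/6J male with 2 human transgenes, APOE-Leiden, a variant of apolipoprotein E that slows the clearance of lipoprotein remnants, and CETP, the cholesteryl ester transfer protein. The fathers were heterozygous for APOE-Leiden and homozygous for CETP, and offspring with both were selected. All F1 mice had a C57BL/6J copy of every autosomal gene, and the C57BL/6J F1 group carried C57BL/6J copies from both sides. They ate chow for 8 weeks and a Western diet with added cholesterol for 16 weeks, and the aorta, stripped of surrounding fat, was taken at 24 weeks. There were 366 arrays of 101 strains, with 1 to 8 arrays (median 4) per strain: 36 BXD strains (124 arrays, bred from C57BL/6J and DBA/2J), 21 AXB/BXA strains (73 arrays, from A/J and C57BL/6J), 9 CXB strains (32 arrays, from BALB/cBy and C57BL/6By), 4 BXH strains (15 arrays, from C57BL/6J and C3H/HeJ) and 31 classical inbred strains (122 arrays). Strains are named below by the mother. Values are log2 intensities, so an increase of 1 is 2-fold, and groups are compared within a probe set. The brightness of a probe set is given to show how strong its signal was and does not rank the RNA of different genes.

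Triglyceride is built on glycerol 3-phosphate, which Gpd1 makes from a glycolytic intermediate. Gpam adds the first fatty acid, the Agpat enzymes the next, the lipins (Lpin1, Lpin2, Lpin3) remove the phosphate, and Dgat1 and Dgat2 add the last fatty acid. The droplet is coated by perilipins (Plin genes), and seipin, the product of Bscl2, acts where droplets form. Lipolysis runs in steps, from adipose triglyceride lipase (Pnpla2), switched on by Abhd5 and held back by G0s2, to hormone-sensitive lipase (Lipe) and monoglyceride lipase (Mgll). Pparg and Cebpa drive the fat-cell programme, Adipoq and Retn encode the hormones adiponectin and resistin, Fabp4 and Fabp5 carry fatty acids in the cell, and Aqp7 is a glycerol channel. These genes are best known from fat tissue, and in the artery wall some of them, Plin2 among them, also mark lipid-laden macrophages.

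The sequence upstream of 3 of the genes is shown. They had the largest shares of variance among strains, given below, of the genes with enough upstream sequence outside their annotated span. Lpin1, whose share was above those of Retn and Plin5, did not have enough. The sequence is RefSeq's reference (GRCm38.p6), which is that of C57BL/6J. It is printed 5′ to 3′ on the gene's strand up to the annotated span of the gene. Capitals mark CCAAT boxes (CCAAT), GC boxes (GGGCGG) and the nuclear receptor core AGGTCA, on either strand. Pnpla3 lies on the plus strand (chr15:84167566-84167775 shown), Retn on the plus strand (chr8:3655520-3655769) and Plin5 on the minus strand (chr17:56117607-56117798).

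Pnpla3: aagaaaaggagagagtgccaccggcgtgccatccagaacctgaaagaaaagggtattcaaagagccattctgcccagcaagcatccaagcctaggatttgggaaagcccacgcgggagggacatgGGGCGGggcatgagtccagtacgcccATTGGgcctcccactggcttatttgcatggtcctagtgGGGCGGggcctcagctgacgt

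Retn: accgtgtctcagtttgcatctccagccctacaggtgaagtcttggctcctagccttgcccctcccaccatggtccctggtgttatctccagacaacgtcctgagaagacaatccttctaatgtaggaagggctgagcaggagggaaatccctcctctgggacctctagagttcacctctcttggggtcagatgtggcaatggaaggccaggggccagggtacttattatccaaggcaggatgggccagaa

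Plin5: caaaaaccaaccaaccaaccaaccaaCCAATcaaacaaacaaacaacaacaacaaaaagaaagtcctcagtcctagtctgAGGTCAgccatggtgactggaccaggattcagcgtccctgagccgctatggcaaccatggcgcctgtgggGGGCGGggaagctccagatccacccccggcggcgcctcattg

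Distances are counted from a start site that lies beyond the end of 2 of the printed stretches. The Pnpla3 stretch ends 40 bases before it, the Plin5 stretch 58 and the Retn stretch 0. The Pnpla3 stretch held 2 GC boxes, which began 125 and 61 bases before the start site, and 1 CCAAT box between them. The Plin5 stretch held 1 CCAAT box, 1 GC box and 1 AGGTCA, the last beginning 170 bases before the start site, and the Retn stretch held none of the motifs searched. Of the 28 genes, 23 had an upstream sequence of 250 bases in the table. AGGTCA lay in 8 of these 23 (34.8%), against 15.8% of 27025 mouse genes with such a sequence. These 8 were Lpin1, Plin5, Gpam, Plin2, Aqp7, Abhd5, Bscl2 and Pparg. GGGCGG lay in 13 of 23 (56.5%, against 35.4%) and CCAAT in 11 (47.8%, against 37.5%). The E-box CACGTG lay in 3 (13.0%, against 6.86%), TTGCNNAA, a C/EBP-like site, in 3 (13.0%, against 10.8%), and TATAAA in 2 (8.70%, against 14.3%). A match is a description of letters and was not tested for binding.

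The samples, labelled as aorta, held strong fat-cell signal. Ucp1, the uncoupling protein that defines brown fat, had a mean of 12.92 and was never below 12.33 on any array, and Cidea (12.66) and Cox8b (13.08) were as steady. All of these lay near the highest value in the table, 13.73, so their steadiness need not mean a constant amount of brown fat. Other fat-cell markers varied more. Of the 7 brown markers Dio2 ran from 4.42 to 10.45 and Elovl3 from 7.83 to 11.53, and of the 9 adipocyte markers Lep ran from 2.45 to 7.97 and Hcar1 from 3.24 to 6.52, genes picked after their values were seen. Smooth muscle signal was present but uneven: Myh11, the smooth muscle myosin, ran from 4.58 to 11.66 over the arrays. Scores, each the mean log2 value of a list of marker genes, were 6.89 to 8.45 for the adipocyte markers (9 genes, none of them on the triglyceride list), 9.99 to 11.66 for brown adipocytes (7 measured of 9), 5.12 to 9.48 for smooth muscle (8 of 10), 5.39 to 7.49 for macrophages (12), 3.05 to 12.29 for skeletal muscle (8) and 3.29 to 9.55 for hepatocytes (9 of 10). A hepatocyte score more than 3 scaled median absolute deviations above the median was found on 30 arrays of 21 strains. In such whole tissue a change in the number of fat cells and a change in RNA per cell cannot be told apart, and the part of tissue makeup in each result below was not tested beyond the values given with it.

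The triglyceride genes were among the bright probe sets. Fabp4 (mean 13.47), Thrsp (13.17), Plin2 (12.47), Adipoq (12.45) and Gpd1 (12.37) lay above 12, near the highest value in the table, 13.73. At the dim end were Pck1 (2.27), the gluconeogenic enzyme that also feeds glycerol synthesis, and Lpin3 (3.07), both under the median probe set (3.28). Pnpla2 had 1 probe set with a low mean of 4.34, so its values rest on a weak signal.

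Most of these genes differed among strains, as most probe sets did. The F test of limma over the 95 strains with at least 2 arrays (360 arrays) called 26 of 28 genes at an adjusted p under 0.05, and Lpin3 (adjusted p = 0.117) and Pck1 (adjusted p = 0.107) were not called. The same test called 77% of all 45141 probe sets, and 95.8% of the brighter ones, those whose mean exceeded the median of all probe set means, where 26 of 26 of the triglyceride genes were called. The share of genes called was therefore near that of the brighter probe sets. These reach down to a mean of 3.28, and most of the triglyceride genes were far brighter, so the 2 are not matched in brightness. Lipe was the least secure call, with an adjusted p of 0.0183, which became 0.0560 without BXD75/RwwJ, 0.0666 with the brown adipocyte score as a covariate and 0.0573 with the smooth muscle score.

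The share of the variance that lay among strains differed widely between the genes. Its median over the 28 genes was 36.8%, against 17.9% over all probe sets and 29.5% over the brighter ones, and 20 of 28 genes lay above the latter. Pnpla3 stood at the top with 83.9% ± 2.4 (SE), higher than 99.9% of all probe sets. Lpin1 followed with 57.4% ± 5.0, Retn with 54.9% ± 5.1 and Plin5, a perilipin of tissues that burn fat, with 51.5% ± 5.3. Gpam (48.8%), Gpd1 (46.6%) and Fabp4 (45.3%) came next. The fat-cell regulator Pparg (18.0%), Adipoq (17.6%) and Lipe (10.3%) had far smaller shares. For every gene but Pnpla3, Lpin1, Retn and Plin5, the larger part of the variance lay within strains. That part holds differences between mice and array noise together. The share rose for Lpin3, from 5.57% to 19.9%, and for Pparg, from 18.0% to 30.0%, once the adipocyte score had been taken out.

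**Figure D1:**
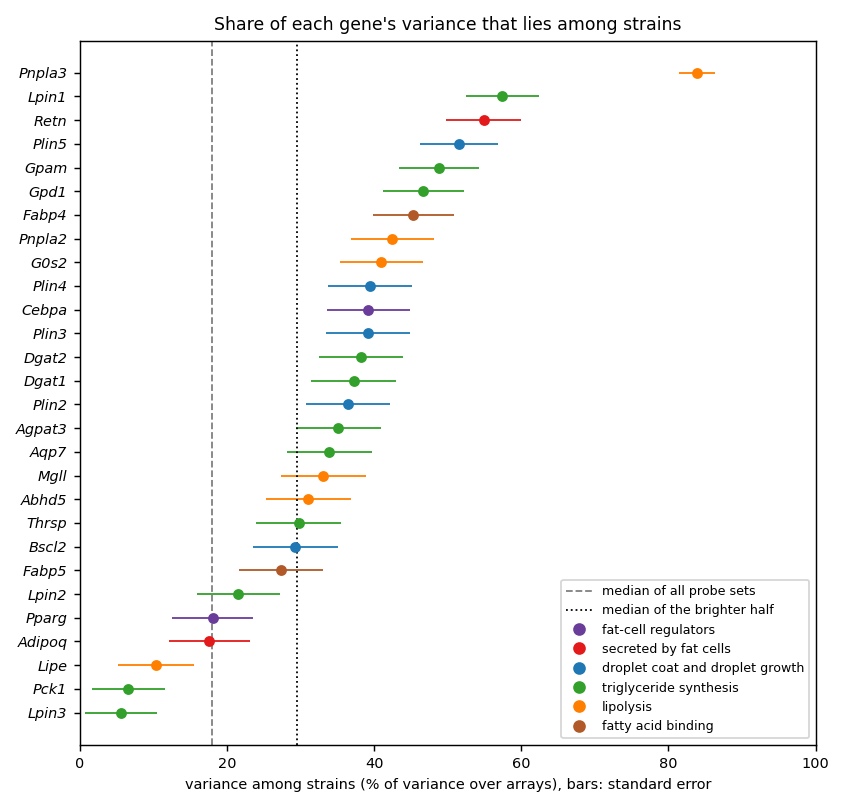
Share of the variance over arrays that lies among strains (x axis, percent) for the 28 genes (y axis), with standard errors as bars and colours for the role of the gene. The dashed line is the median of all probe sets (17.9%) and the dotted line that of the brighter probe sets (29.5%). Pnpla3 stands apart at 83.9%.

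Among the lipolysis genes Pnpla3 differed most by strain. Pnpla3, a triglyceride lipase relative of Pnpla2 that in mouse is induced by feeding, was measured by 1 probe set. Its strain means ran from 6.08 in CXB7/ByJ (arrays 5.33, 5.97, 6.11 and 6.94) to 9.93 in BXD9/TyJ (arrays 9.53, 9.68, 10.17 and 10.33), a range of 3.85 on the log2 scale. The highest array of CXB7/ByJ lay below the lowest of BXD9/TyJ.

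In the BXD strains the Pnpla3 means fell into a lower and a higher stretch. The 10 lowest strains had means from 7.24 (BXD1/TyJ) to 8.22 (BXD87/RwwJ), and the 26 highest from 8.96 (BXD73/RwwJ) to 9.93, with a gap of 0.74 between neighbours. The F1 groups of the parents lay at either side: C57BL/6J at 7.26 and DBA/2J at 9.60. Of the 36 BXD strains, 26 had means between those of the parental groups, 9 lay above both and 1 below. In BXD20/TyJ, 1 of 4 arrays was at 7.45 while the others were at 9.57, 9.82 and 9.90.

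The other recombinant inbred sets lacked the higher stretch of Pnpla3. The 21 AXB/BXA means ran from 7.08 to 8.35 and their arrays from 6.49 to 8.68. The 9 CXB means ran from 6.08 to 7.69 and the 4 BXH means from 7.10 to 8.04. The F1 groups of A/J, BALB/cJ and C3H/HeJ were low as well, A/J at 7.67, BALB/cJ at 7.53 and C3H/HeJ at 7.06. Among the 31 classical strains, 12 means lay at or below 8.48 (BUB/BnJ) and 19 at or above 8.93 (LG/J), with BTBR T<+> tf/J highest at 9.88 and NOD/ShiLtJ lowest at 6.77. Within sets, limma's F test called Pnpla3 with an adjusted p of 9.05e-27 in BXD, 0.00482 in AXB/BXA and 1.42e-26 in the classical strains.

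**Figure D2:**
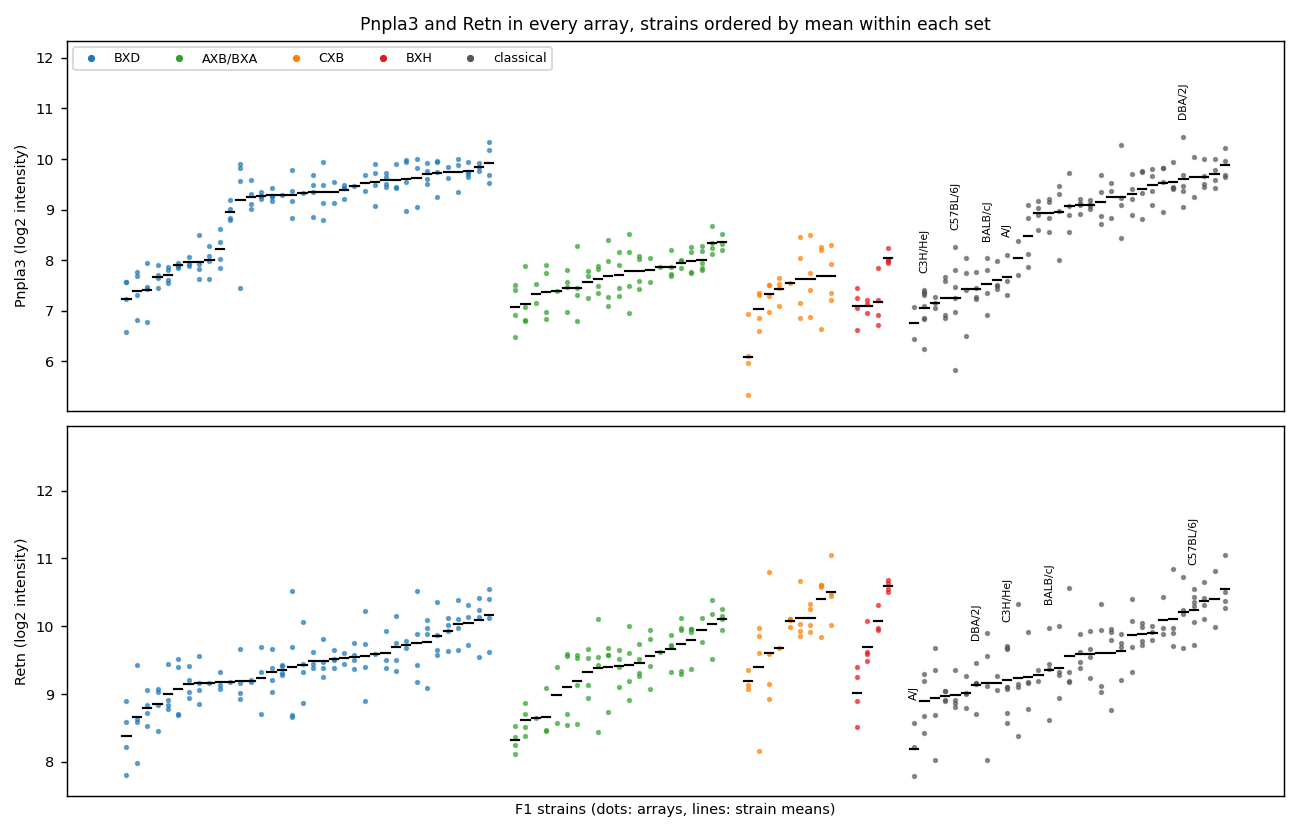
Log2 intensity of Pnpla3 (upper panel) and Retn (lower panel) in all 366 arrays (dots), with strains along the x axis ordered by their mean (black lines) within each set, and the 5 parental groups named. Pnpla3 means of the BXD strains step from 8.22 to 8.96 and no AXB/BXA, CXB or BXH mean exceeds 8.35. Retn means rise without such a step in the BXD strains.

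The same contrast was tested directly in the parental groups. In the C57BL/6J F1 (n = 6), Pnpla3 ran from 5.83 to 8.25 with a median of 7.36. The 5 DBA/2J arrays read 9.06, 9.36, 9.47, 9.68 and 10.44, all above every C57BL/6J array. The difference was 2.34 ± 0.26 (SE, log2), or 5.06-fold, with an adjusted p of 1.80e-14 in limma. An exact two-sided permutation test gave p = 0.00217 (n = 5 and 6), the smallest this split gives. The difference was called under all 20 alternatives run. The adipocyte score was 7.92 to 8.30 in the DBA/2J group and 7.54 to 8.02 in the C57BL/6J group, and 3 of the 9 adipocyte markers were called higher in DBA/2J. With that score as a covariate the call remained.

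Of the 4 contrasts with C57BL/6J, the one with DBA/2J called 2 triglyceride genes higher and 1 lower, against 1.4% of all probe sets higher and 2.29% lower. The A/J contrast called none higher and 2 lower (background 1.33% and 3.61%), the BALB/cJ contrast 1 higher and 4 lower (1.63% and 4.67%) and the C3H/HeJ contrast none higher and 5 lower (3.91% and 5%). At an unadjusted p under 0.05 in limma, 9 of the 28 genes passed for DBA/2J (background 14.4%), 9 for A/J (16.9%), 9 for BALB/cJ (19.7%) and 7 for C3H/HeJ (20.3%), in either direction. All 4 share the C57BL/6J arrays, so a C57BL/6J value that is off moves every one of them. The labels name no batch, and separate mice of 1 strain are the replicates.

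The parental groups also differed in their makeup. The smooth muscle score was 5.25 to 7.62 in the C57BL/6J F1, 7.56 to 8.03 in A/J, 7.94 to 8.48 in BALB/cJ, 7.32 to 8.66 in C3H/HeJ and 6.70 to 7.85 in DBA/2J. Of the 8 smooth muscle markers measured, 6 were called higher in BALB/cJ and 6 in C3H/HeJ, and none in A/J or DBA/2J. The macrophage score was 5.74 to 5.96 in A/J and 6.27 to 7.44 in C57BL/6J, and 5 of 12 macrophage markers were called lower in A/J. The adipocyte score was 7.54 to 8.02 in C57BL/6J, 7.09 to 7.82 in A/J, 7.19 to 7.94 in BALB/cJ and 7.19 to 7.82 in C3H/HeJ, and of its 9 markers 1 was called lower in A/J, 2 in BALB/cJ and 3 in C3H/HeJ, with none higher. The brown adipocyte score was 10.56 to 10.73 in BALB/cJ, all below the 10.88 to 11.23 of C57BL/6J. It was 10.97 to 11.23 in A/J, 10.72 to 11.39 in C3H/HeJ and 10.83 to 11.10 in DBA/2J. Of the 7 brown markers measured, 1 was called lower, in BALB/cJ. Of the 8 endothelial markers, 3 were called higher in C3H/HeJ. Of the 8 fibroblast markers, 3 were called lower in A/J, 1 in BALB/cJ and 2 in C3H/HeJ. These groups are also those in which most triglyceride genes that were called were lower. The hepatocyte score was high on 1 C57BL/6J array (replicate 1) and on 2 DBA/2J arrays. The part of these differences in the calls was not tested beyond the covariates below.

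Of the hormones, resistin (Retn) was lower than in C57BL/6J in each of the other parental groups. C57BL/6J itself was high, with a mean of 10.24 against a median of 9.48 over the 101 strain means. The means of BALB/cJ (9.35), C3H/HeJ (9.20) and DBA/2J (9.13) lay nearer that median. In 3 of the other parental groups, A/J, BALB/cJ and C3H/HeJ, some adipocyte, macrophage and fibroblast markers were also called lower. Within strains Retn correlated with the fibroblast score at 0.36, the adipocyte score at 0.28 and the macrophage score at 0.24. The C57BL/6J F1 arrays ran from 9.72 to 10.55 with a median of 10.33. The A/J arrays read 7.80, 8.22 and 8.57, and none overlapped with C57BL/6J. The DBA/2J arrays read 8.71, 9.15, 9.16, 9.17 and 9.45, again all below C57BL/6J. The 8 C3H/HeJ arrays ran from 8.57 to 9.71 (median 9.11), also without overlap, and of the BALB/cJ arrays, 8.62, 9.37, 9.45 and 9.98, 3 of 4 lay below all of C57BL/6J.

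Retn was 4.11-fold lower in A/J (log2 difference −2.04 ± 0.29, adjusted p = 1.81e-08; exact permutation p = 0.0119, the smallest this split of 3 and 6 gives). In C3H/HeJ it was 2.05-fold lower (−1.03 ± 0.22, adjusted p = 0.000349). The DBA/2J difference was −1.11 ± 0.25 (adjusted p = 0.00127) and the BALB/cJ difference −0.88 ± 0.27 (adjusted p = 0.0242). The A/J and C3H/HeJ calls held under every alternative run. The DBA/2J call was lost without the arrays high in hepatocyte markers (−1.02), and the BALB/cJ call with the adipocyte score as a covariate (−0.69) and in 3 of its runs with 1 array left out, those without BALB/cJ replicate 2, BALB/cJ replicate 4 or C57BL/6J replicate 6.

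Across the whole panel A/J had the lowest Retn mean (8.20) and BXH8/TyJ the highest (10.60), with FVB/NJ next (10.55). All 21 AXB/BXA strains had means between those of their parental groups, from 8.32 (AXB15/PgnJ) to 10.11 (BXA11/PgnJ). Of the 36 BXD means, 30 lay between the parental groups and 6 below both, from 8.38 (BXD44/RwwJ) to 10.17 (BXD55/RwwJ). Adiponectin (Adipoq), made by the same cells, had a narrow range near the top of the scale. Over the 87 strains with at least 3 arrays its means ran from 12.21 (AXB13/PgnJ) to 12.60 (BXD48/RwwJ). It was called lower in C3H/HeJ alone. There its arrays ran from 11.91 to 12.42 (median 12.27) against 12.40 to 12.61 (median 12.50) in C57BL/6J, a difference of −0.25 ± 0.06 (adjusted p = 0.00321), called under every alternative run.

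Among the other lipolysis genes, Pnpla2 was lower in BALB/cJ. Its arrays read 3.46, 3.63, 3.67 and 4.04 against 4.42 to 5.23 (median 4.74) in C57BL/6J, with no overlap. The difference was −1.08 ± 0.23 (adjusted p = 0.000540), and it was called under every alternative run. The exact permutation p was 0.00476, the smallest this split of 4 and 6 gives. Of the strains with at least 3 arrays, Pnpla2 was lowest in SJL/J (3.33) and BTBR T<+> tf/J (3.46) and highest in BXD64/RwwJ (5.04). Abhd5, the co-activator of Pnpla2, was lower in C3H/HeJ, 8.13 to 8.56 (median 8.34) against 8.57 to 9.32 (median 8.78) in C57BL/6J (−0.50 ± 0.14, adjusted p = 0.00730). That call was lost without C57BL/6J replicate 1, the array high in hepatocyte markers (−0.41), and with the smooth muscle score as a covariate (−0.30). The other probe set of Abhd5 was called in BALB/cJ (−0.62, adjusted p = 0.00720) and not in C3H/HeJ (−0.37, adjusted p = 0.0652).

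G0s2, the inhibitor of Pnpla2, had the next-largest range of strain means after Pnpla3 among the 87 strains with at least 3 arrays. It ran from 9.25 in BTBR T<+> tf/J (arrays 8.97, 9.06, 9.23 and 9.73) to 11.87 in BXD73/RwwJ (11.44 to 12.19), a range of 2.62 on the log2 scale, with SWR/J second lowest at 10.11. Of the strains with fewer arrays, 129X1/SvJ (12.02, n = 2) and AXB8/PgnJ (11.90, n = 2) lay higher still. It was called in none of the 4 contrasts. Lipe and Mgll had ranges of 0.71 and 0.74 over the same 87 strains.

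Of the droplet coat genes, Plin4, a perilipin of white fat cells, was higher in DBA/2J. Its arrays read 10.25, 10.31, 10.38, 10.46 and 10.67 against 9.33 to 10.23 (median 9.98) in C57BL/6J. The groups did not overlap, and the difference was 0.50 ± 0.11 (adjusted p = 0.000952, exact permutation p = 0.00433 with n = 5 and 6). Without the arrays high in hepatocyte markers it was 0.28 and not called. Of the strains with at least 3 arrays, Plin4 was highest in NON/ShiLtJ (10.61) and lowest in BTBR T<+> tf/J (9.68). In the same strains Plin5 was lowest in BTBR T<+> tf/J (9.73) and highest in BXD75/RwwJ (11.01). Plin3, a coat protein found in most cells, had both its lowest and its highest mean among them in the AXB/BXA set. These were 8.07 in AXB12/PgnJ and 8.97 in BXA7/PgnJ.

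Of the synthesis genes, Lpin1 was lower in 3 parental groups than in C57BL/6J. The C57BL/6J mean (10.94) was above the median of the 87 strains with at least 3 arrays (10.62). The means of A/J (10.46), BALB/cJ (10.44) and C3H/HeJ (10.59) lay nearer that median. The A/J arrays read 10.35, 10.48 and 10.55 and the BALB/cJ arrays 10.22, 10.50, 10.52 and 10.52, all below the C57BL/6J range of 10.79 to 11.34 (median 10.83). The C3H/HeJ arrays, 10.22 to 10.81 (median 10.60), overlapped with it. The differences were −0.49 ± 0.15 (adjusted p = 0.0366), −0.50 ± 0.14 (adjusted p = 0.0112) and −0.36 ± 0.12 (adjusted p = 0.0307). None of the 3 was called with all probe sets of the gene averaged (−0.38, −0.40 and −0.27) or with the smooth muscle score as a covariate (−0.40, −0.39 and −0.26). The A/J (−0.43) and C3H/HeJ (−0.32) calls were lost with the adipocyte score and the BALB/cJ call (−0.40) with the brown score. Over the alternatives run, the call held in 10 of 18 for A/J, 14 of 19 for BALB/cJ and 16 of 23 for C3H/HeJ, and it was lost in A/J without any 1 of its 3 arrays. The other probe set of Lpin1 was called in no contrast, though its strain means followed those of the first (r = 0.93, n = 101 strains).

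No other synthesis gene was called in a contrast by the probe set used. The other probe set of Dgat2 was called higher in DBA/2J (0.71, adjusted p = 0.000566). Cebpa was lower in BALB/cJ, at 9.09, 9.19, 9.36 and 9.40 against 9.40 to 9.91 in C57BL/6J (−0.47 ± 0.15, adjusted p = 0.0278), and in C3H/HeJ, at 9.03 to 9.66 (−0.37 ± 0.12, adjusted p = 0.0365). Fabp4 was higher in BALB/cJ, at 13.42, 13.53, 13.63 and 13.69 against 13.28 to 13.45 (0.18 ± 0.06, adjusted p = 0.0308), near the top of the scale. Groups overlapped in each of these 3 comparisons, and each call was lost under at least 8 of the alternatives run. Of all 15 calls, 5 held under every alternative: Pnpla3 in DBA/2J, Retn in A/J and C3H/HeJ, Pnpla2 in BALB/cJ and Adipoq in C3H/HeJ.

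**Figure D3:**
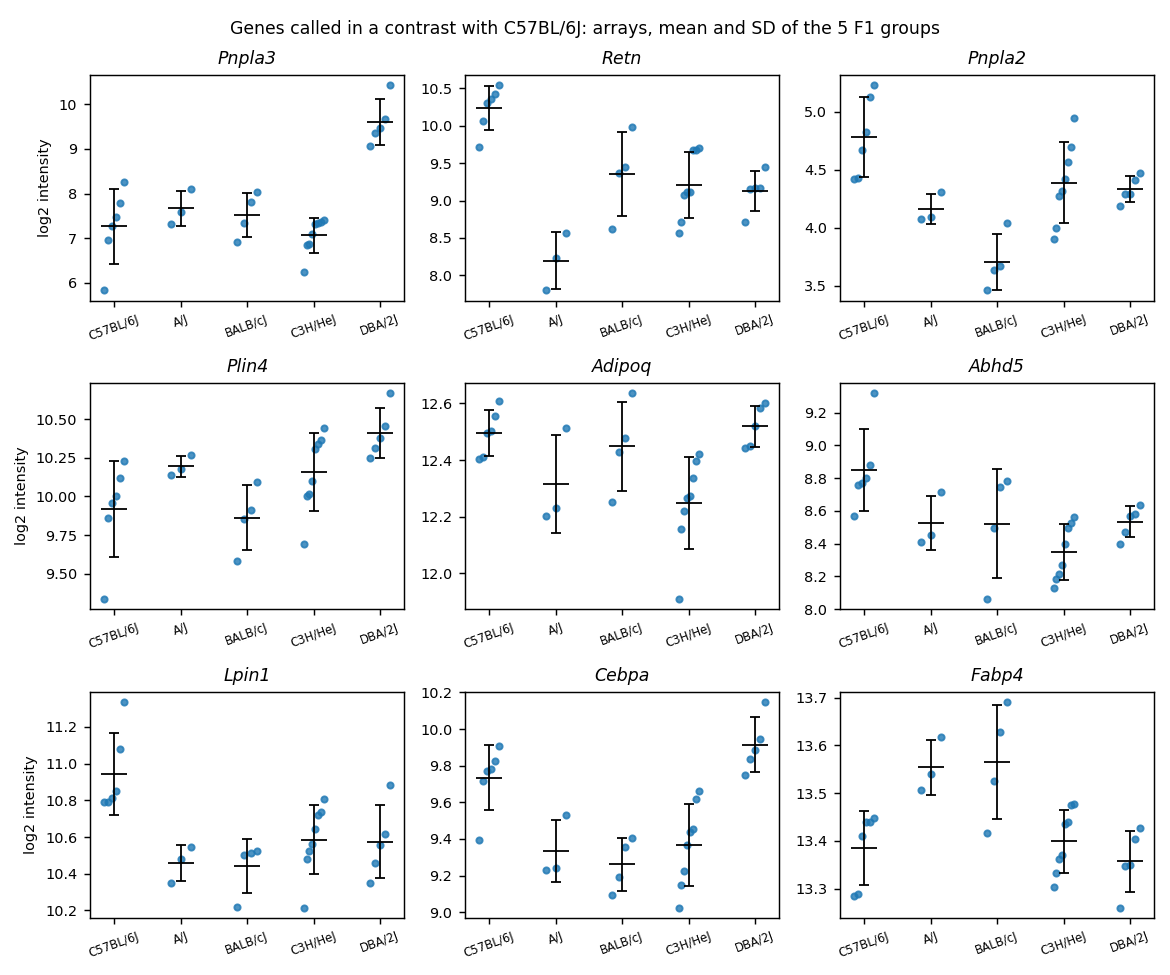
Log2 intensity (y axes, separate scales) of the 9 genes called in at least 1 contrast, in the F1 groups of the 5 parental strains. Dots are arrays, and lines with bars are means and SDs (n = 6, 3, 4, 8 and 5 from left to right). Pnpla3 in DBA/2J and Retn in A/J lie clear of the C57BL/6J arrays.

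LG/J was the strain in which these genes were most often low. Of the 87 strains with at least 3 arrays, it had the lowest mean for 10 of the 28 genes (Cebpa, Plin2, Bscl2, Gpd1, Gpam, Agpat3, Lpin1, Thrsp, Aqp7 and Fabp5) and was among the 5 lowest for 17. Such counts were not made over all probe sets, for LG/J or for the strains named below. They therefore do not set the triglyceride genes apart from other genes. Gpam, the committing enzyme of synthesis, read 10.16, 10.45, 10.54 and 10.82 there, against a median strain mean of 11.38. Lpin1 read 9.005, 9.46, 9.73 and 9.78 (median strain mean 10.62), with RIIIS/J second lowest at 10.15. Gpd1 had a mean of 11.54 (median 12.40) and Aqp7 one of 6.55 (median 7.70). Pnpla3 was not low in LG/J, at 8.93.

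LG/J also had the highest smooth muscle score (mean 9.12, median strain 7.64) and the lowest brown adipocyte score (10.47, median strain 11.10) of the 87 strains, while its adipocyte score, 7.95, was not low (median strain 7.77). SJL/J and BTBR T<+> tf/J had the next-lowest brown adipocyte scores, 10.49 and 10.54. BTBR T<+> tf/J was lowest for Plin4, Plin5, Dgat1 and G0s2 and among the 5 lowest for 11 genes, SJL/J among the 5 lowest for 12 and C58/J for 10. At the other end, BXD75/RwwJ and BXD48/RwwJ were each among the 5 highest for 8 genes. Their smooth muscle scores were 6.03 and 7.42 and their brown adipocyte scores 11.14 and 11.29. Leaving LG/J out left 26 genes called among strains.

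**Figure D4:**
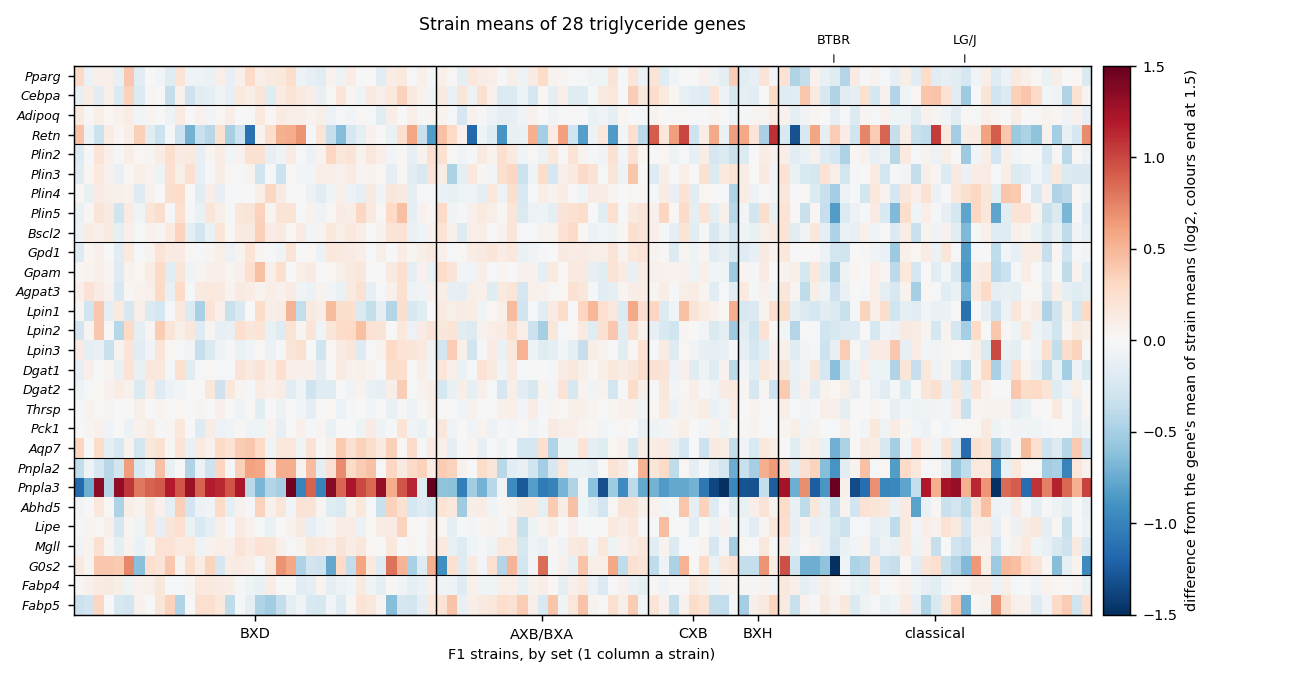
Strain means of the 28 genes (rows, grouped by role) in the 101 strains (columns, by set), as differences in log2 from the gene's mean over strains. Red is higher and blue lower, with colours ending at 1.5. Pnpla3 is red through most BXD columns and blue through most AXB/BXA, CXB and BXH columns, and the LG/J column is blue for most synthesis genes.

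The sets of related strains differed in how many genes varied within them. Among the BXD strains (33 strains, 121 arrays) 19 of 28 genes were called, against 42.5% of all probe sets. Among the AXB/BXA strains (19 strains, 71 arrays) 14 were called, against 40.1%, and among the classical strains (31 strains, 122 arrays) 23, against 61.5%. Cebpa, Retn, Plin3, Plin5, Lpin1, Dgat2, Pnpla3, Abhd5, G0s2 and Fabp4 were called in each of the 3 sets. After Pnpla3, Lpin1 had the lowest adjusted p in the BXD strains, 6.70e-14. Plin3 had the lowest in the AXB/BXA strains, 1.09e-07. Numbers of strains and arrays differ between the sets, so the counts do not rank them.

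Some of the genes moved together. Over the 101 strain means the median correlation of the 378 pairs was 0.18 (range −0.52 to 0.85). There 62 pairs were above 0.5 and 101 pairs below 0. Over the deviations of 360 arrays from their strain means the median was also 0.18 (range −0.46 to 0.74), with 50 pairs above 0.5. Points share an array and its tissue makeup, so these values are descriptions. Correlations among other probe sets were not computed, so whether these counts are unusual was not tested. The closest pairs over strain means were Plin5 with Dgat1 (r = 0.85), Plin2 with Gpd1 (0.83), Plin5 with Gpam (0.82) and Bscl2 with Dgat1 (0.81). Plin2 with Gpd1 was the closest pair within strains too (0.74). Retn, Pnpla3, Lpin3, Fabp4, Fabp5, Pck1, Thrsp and Dgat2 followed the others least, with median correlations over strain means from −0.08 (Lpin3) to 0.07 (Pnpla3). Cebpa and Fabp4 ran opposite to each other over strain means (−0.52) and much less so within strains (−0.13).

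The genes of these closest pairs over strain means followed the brown adipocyte score. The markers that varied most in it were Dio2 (SD over arrays 1.00), Elovl3 (0.65) and Kcnk3 (0.35). Ucp1 (0.14), Cidea (0.12), Cox7a1 (0.20) and Cox8b (0.10) varied little. A brown score with each marker scaled to SD 1 was not run, so following the score need not mean following each marker. Over strain means Plin5 correlated with the brown score at 0.80, Gpam at 0.76, Dgat1 at 0.74, Plin2 at 0.72 and Gpd1 at 0.71. The corresponding values were 0.01 for Pnpla3 and −0.26 for Retn. Further genes followed it little, among them Dgat2 (−0.07), Fabp5 (0.04), Pck1 (0.08), Plin3 (0.13) and Adipoq (0.15). With the brown and smooth muscle scores taken out, the median pair correlation fell to 0.08 over strain means, where 13 pairs stayed above 0.5, the highest being Plin5 with Dgat1 (0.65), Plin2 with Gpd1 (0.64) and Cebpa with Dgat1 (0.64).

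Slopes on the scores within strains asked which genes rise when 1 mouse of a strain had a higher score than another. On the brown adipocyte score, a slope added after the data were seen, 22 genes were called positive and 1 negative, against 18.8% and 16.1% of all probe sets. The steepest were Pnpla2 (1.04 ± 0.10 SE, log2 per log2), G0s2 (0.91 ± 0.14), Plin5 (0.79 ± 0.05) and Dgat1 (0.72 ± 0.05). Pnpla3 was among those called (0.54 ± 0.14, adjusted p = 0.00053). Retn (−0.19 ± 0.14), Thrsp, Plin3, Fabp5 and Pck1 were not called. On the smooth muscle score, also added later, 20 were called negative and 1 positive (Lpin3), against 35.5% negative and 23.9% positive. G0s2 (−0.13 ± 0.04), Plin5 (−0.13 ± 0.02) and Abhd5 (−0.13 ± 0.02) had the steepest slopes.

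On the adipocyte score 21 genes were called positive and 1 negative, against 14.5% and 8.06% of all probe sets. G0s2 (0.77 ± 0.13), Pnpla3 (0.71 ± 0.13), Aqp7 (0.59 ± 0.09) and Retn (0.59 ± 0.12) had the steepest slopes. Lpin3, dim on most arrays, was the negative one (−0.57 ± 0.10), and the 8 skeletal muscle markers were all called negative as well. Plin3, Gpam, Lpin2, Pck1, Abhd5 and Fabp5 were not called. Gpam and Abhd5 had slopes of 0.63 ± 0.04 and 0.69 ± 0.07 on the brown score and of 0.08 ± 0.05 and 0.10 ± 0.08 on the adipocyte score, and the difference between the slopes was not tested. The scaling of the adipocyte score decided some calls. With each marker scaled to SD 1, Gpam (adjusted p = 0.000309), Abhd5 (0.000167), Lpin2 (0.00191) and Fabp5 (0.0227) were called, and Lpin1 (0.734) and Thrsp (0.291) were not. With the brown, smooth muscle and macrophage scores in the same fit, 19 of 28 genes were called on the adipocyte score in either direction, against 22.4% of all probe sets.

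On the macrophage score 4 genes were called, 1 positive and 3 negative, against 8.34% and 4.04% of all probe sets. Retn rose with it (0.32 ± 0.08, adjusted p = 0.00181). Plin4 (−0.16 ± 0.04, adjusted p = 0.000240), Gpam (−0.10 ± 0.03, adjusted p = 0.0192) and Dgat2 (−0.09 ± 0.03, adjusted p = 0.0476) fell. Plin2, the coat protein of foam cells, did not pass the test (−0.01 ± 0.04, adjusted p = 0.898). Without the arrays high in hepatocyte markers, Gpam (−0.08) and Dgat2 (−0.10) were no longer called.

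**Figure D5:**
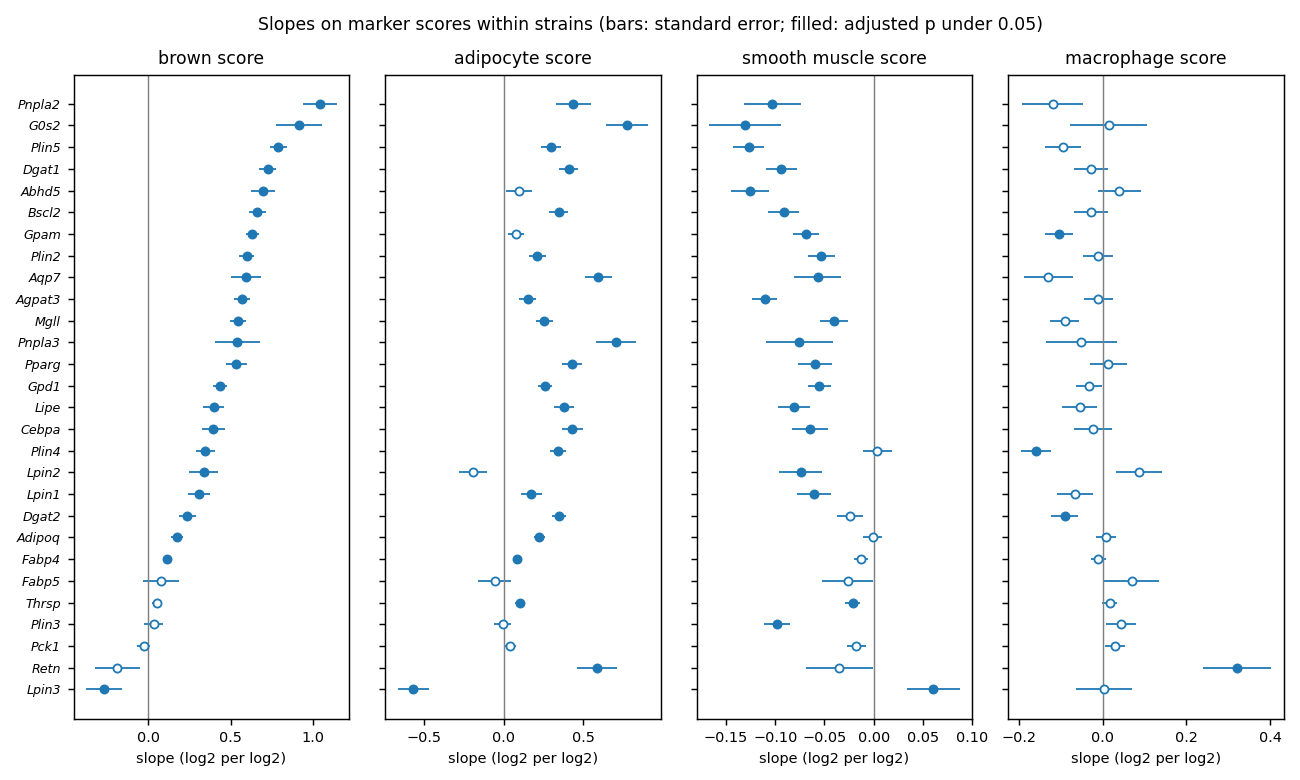
Slopes of the 28 genes (rows) on 4 marker scores within strains, in log2 per log2 unit of score, with standard errors as bars and filled dots where the adjusted p is under 0.05. The x axes have separate ranges. Most genes lie to the right of 0 on the brown and adipocyte scores and to the left on the smooth muscle score, and Retn is the 1 filled dot to the right on the macrophage score.

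Of the genes of the pathway outside the list, 42 were measured. The F test called 40 of them among strains, a share near the 95.8% of the brighter probe sets. On the adipocyte score 24 had a positive and 5 a negative slope (background 14.5% and 8.06%), and 4 each way were called on the macrophage score (8.34% and 4.04%). The 4 with the highest probe set means were Scd1 (13.43), Fasn (13.01), Lpl (12.74) and Acly (12.70), of which Scd1, a desaturase, Fasn, the fatty acid synthase, and Acly, which makes cytosolic acetyl-CoA, had positive adipocyte slopes (0.09, 0.13 and 0.23). Lpl, the lipase that frees fatty acids from lipoproteins, had a slope of −0.01 (adjusted p = 0.882) on that score and one of −0.10 (adjusted p = 4.96e-05) on the macrophage score.

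Where a gene had further probe sets, they mostly followed the one used. Of 20 such probe sets, 18 were called among strains, and 14 had strain means that correlated above 0.5 with those of the probe set used (median r = 0.72). The exceptions included a probe set of Fabp4 with a mean of 10.04 (r = −0.21) and one of Lipe with a mean of 2.50 (r = 0.17). Pnpla3, Retn, Pnpla2, Plin4 and Adipoq have 1 probe set each, so no further one could be set beside them. Differences between strains in the sequence under the probes were not examined.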

How the data were processed

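RNA from each aorta had been hybridised to 1 Affymetrix mouse expression array. Per the labels, the authors read intensities with GCOS and normalised them with RMA, and the deposited values are log2 intensities of 45141 probe sets (versions not given in the sources used here). Array medians were 3.17 to 3.40, and the number of arrays limits the precision. Probe sets were named from the platform annotation, and 28898 carried 1 gene symbol, 551 several and 15692 none. No column was without a sample.

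Strains were taken from the labels. limma 3.58.1 in R 4.3.3 gave F tests among strains with at least 2 arrays, contrasts with C57BL/6J and slopes on marker scores with strain as a factor, with Benjamini-Hochberg adjustment over all probe sets and a threshold of 0.05. Exact permutation tests were two-sided. They were run only for differences that limma had already called on the same arrays, so they are not separate support. Each fit was tested on simulated data. The share of variance is the intraclass correlation. The genes, lists and tests were chosen with earlier results of these data known. Per-array values are given for genes called in a contrast, and extreme strains for the 12 genes that varied most by strain in this share, with others named after their values were seen. The smooth muscle and brown slopes, those covariates and the exclusion of LG/J were added after seeing the data. Alternatives also covered strains with at least 3 arrays, an intensity trend, further quantile normalization, dim probe sets, mean probe sets, marker scores as covariates, arrays high in hepatocyte markers and each strain or array left out.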

Additional observations from a re-analysis of the deposited data

Results flagged for a closer look

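Arrays apart from their group were looked for in 274 groups of 4 to 10 arrays: the called genes in the parental groups, the extreme strains of each gene and their neighbours in order, and Pnpla3 and Retn in every strain. In 15 of them the lowest or highest array had a gap to its neighbour above Dixon's 95% critical value, about the number that chance gives (1 in 20).

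For Pnpla3, the lowest array of BXD20/TyJ (replicate 2) was at 7.45 with the next at 9.57. The highest of CBA/J was at 7.98 (next 7.52) and the highest of SEA/GnJ at 9.94 (next 9.44). For Retn, the lowest arrays were at 9.37 in AXB12/PgnJ (next 9.91), 8.74 in AXB5/PgnJ (next 9.58), 9.85 in CXB1/ByJ (next 10.58), 9.99 in CXB6/ByJ (next 10.10) and 8.77 in LP/J (next 9.79), and the highest of RIIIS/J was at 10.57 (next 9.33).

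The lowest Cebpa array of C57BL/6J (replicate 5) was at 9.40 with the next at 9.72, and it had the highest smooth muscle score of that group (7.62). The lowest Lpin1 array of BALB/cJ (replicate 1) was at 10.22 with the next at 10.50 (smooth muscle score 8.44, group median 8.24). The lowest Pnpla2 array of BXD64/RwwJ (replicate 4) was at 4.45 with the next at 5.19 (smooth muscle score 9.02, group median 7.88). The highest Aqp7 array of BTBR T<+> tf/J was at 7.70 (next 6.80), the lowest Fabp5 array of BXD73/RwwJ at 10.86 (next 11.21) and the highest Lpin3 array of C58/J at 5.61 (next 2.91). The part of tissue makeup in these values was not tested.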

How the results depend on the processing

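The number of genes called among strains stayed between 25 and 27 under all alternatives, each strain left out in turn included. The median share of variance lay between 36.8% and 38.4%, and the numbers called on the brown, smooth muscle and adipocyte scores were 22 to 23, 20 to 21 and 19 to 24. Contrast counts moved more. Without the arrays high in hepatocyte markers the calls were 3 in BALB/cJ, 3 in C3H/HeJ and 1 in DBA/2J, and 2 on the macrophage score. With the adipocyte score as a covariate BALB/cJ had 3, with the smooth muscle score C3H/HeJ had 2, with the brown score A/J had 6, BALB/cJ 3 and C3H/HeJ 8, and with probe sets averaged A/J had 1. Leaving out 1 array at a time gave 1 to 2 calls in A/J, 2 to 5 in BALB/cJ, 3 to 5 in C3H/HeJ and 3 to 4 in DBA/2J. A/J fell to 1, the Retn call, without any of its own 3 arrays or without C57BL/6J replicate 2 or 4. BALB/cJ fell to 2 without its replicate 2 or 4 and to 3 without C57BL/6J replicate 1, and C3H/HeJ fell to 3 without C57BL/6J replicate 1 or 2. The slope of Lpin1 on the adipocyte score turned from 0.17 to −0.019 with each marker scaled to SD 1. The causes were not tested. No paired analysis was possible because replicate numbers only follow the order of deposit. Low signal limits Pck1, Lpin3 and Pnpla2.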
